A study of Mus musculus with 10 samples.

Results

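The creatine kinases and adenylate kinases of the mouse heart were examined in training and sedentary hearts. The group was set by name and not by response, but earlier results of these data were known. It held 9 genes, namely Ckm, Ckmt2, Ckb, Slc6a8, Gamt, Gatm, Ak1, Ak3 and Ak4, of 56748 gene identifiers in the count tables. Bulk RNA sequencing covered 10 whole hearts, both atria and the ventricles included, with 1 library for each mouse. The 5 training mice had run on a treadmill at 15 m/min for 120 min per day, 5 days per week, for 8 weeks, after a week of acclimatization. The 5 sedentary mice were of the same age and did not train. All 10 mice were male wild type (C57BL/6), and neither group carried an engineered allele. Per the methods they were bought at 8 weeks of age, before a rest period and the acclimatization. Per the methods, mice of both groups underwent PET imaging under isoflurane with an injected glucose tracer before the hearts were taken. The comparison asks how the message levels of the phosphate transfer system differed after forced endurance training.

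Contraction consumes ATP at the myofibrils, while most of it is made in the mitochondria. Creatine kinases bridge this distance by moving a phosphate group between ATP and creatine, so that phosphocreatine buffers ATP and carries energy across the cell. Adenylate kinases rebuild ATP from ADP and thereby release AMP, the signal read by the AMP-activated protein kinase. In the heart, the muscle isozyme sits at the myofibrils and the ion pumps, the sarcomeric isozyme sits in the mitochondrial intermembrane space, and creatine itself is taken up from the blood by a transporter.

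The 3 creatine kinase isozymes among the 9 genes are encoded at separate loci. Ckm (ENSMUSG00000030399) lies at chr7:19138701-19157965 on the plus strand of GRCm39, Ckmt2 (ENSMUSG00000021622) at chr13:92001503-92025608 on the minus strand and Ckb (ENSMUSG00000001270) at chr12:111635789-111639008 on the minus strand. The 250 bases before the RefSeq start of each are printed here because these isozymes catalyse the same reaction and yet differed widely in level. The sequences are from the RefSeq promoter table (GRCm38.p6), in which 8 of the 9 genes had an entry (all but Slc6a8), and each matched GRCm39 exactly once, at chr7:19144769-19145018 (plus), chr13:92025005-92025254 (minus) and chr12:111638773-111639022 (minus). They run 5′ to 3′ along the gene, and capitals mark motif matches.
Ckm: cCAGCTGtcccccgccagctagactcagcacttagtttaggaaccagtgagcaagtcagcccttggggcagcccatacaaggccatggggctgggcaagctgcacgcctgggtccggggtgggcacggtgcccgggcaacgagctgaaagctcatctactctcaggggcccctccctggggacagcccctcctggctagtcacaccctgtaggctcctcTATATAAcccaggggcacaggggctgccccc
Ckmt2: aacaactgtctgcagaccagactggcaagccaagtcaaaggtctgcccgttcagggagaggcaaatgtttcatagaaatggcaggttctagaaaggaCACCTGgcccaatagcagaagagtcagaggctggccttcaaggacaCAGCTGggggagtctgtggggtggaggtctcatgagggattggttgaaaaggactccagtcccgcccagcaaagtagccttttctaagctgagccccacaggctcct
Ckb: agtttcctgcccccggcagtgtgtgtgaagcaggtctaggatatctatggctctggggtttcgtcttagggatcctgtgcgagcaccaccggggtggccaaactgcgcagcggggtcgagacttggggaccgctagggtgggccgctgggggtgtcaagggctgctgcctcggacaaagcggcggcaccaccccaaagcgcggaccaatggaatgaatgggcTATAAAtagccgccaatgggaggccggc
The motifs searched on both strands were the TATA boxes TATAAA and TATATAA, the E-boxes CAGCTG and CACCTG, the MCAT element CATTCCT, the nuclear receptor half-site AAGGTCA, the MEF2 form TAAAAATA and the CArG box, and no matches overlapped in these windows. Counted to the first base of a match, Ckm held TATATAA 31 bases before the start and CAGCTG, an E-box read by muscle transcription factors among others, 249 bases before it. Ckmt2 held CAGCTG 107 and CACCTG 153 bases before its start, and Ckb held TATAAA 28 bases before its start. Among 32841 RefSeq windows of the same length, TATATAA occurred in 3.04%, TATAAA in 12.4%, CAGCTG in 13% and CACCTG in 17.2%. Such matches describe letters and were not tested as binding sites.

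Levels of different genes were compared in TPM, a level scaled by transcript length and by library size. Ckm, the muscle creatine kinase, was the most abundant of the 9 genes with a mean of 1960 TPM over the 10 hearts, followed by the sarcomeric mitochondrial isozyme Ckmt2 with 1204 TPM. Among the genes of the nuclear genome these were ranks 24 and 42. Ak1, the cytosolic adenylate kinase, followed at 233 TPM and the creatine transporter Slc6a8 at 76.0 TPM. Ak3, which passes phosphate from GTP to AMP in the mitochondrial matrix, reached 50.0 TPM and the brain-type creatine kinase Ckb reached 28.7 TPM. Ak4, a second matrix isoform, stood at 11.6 TPM. The enzymes of creatine synthesis were lowest, with 3.60 TPM for Gamt, the methyltransferase of the last step, and 1.43 TPM for Gatm, which makes its substrate.

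**Figure D1:**
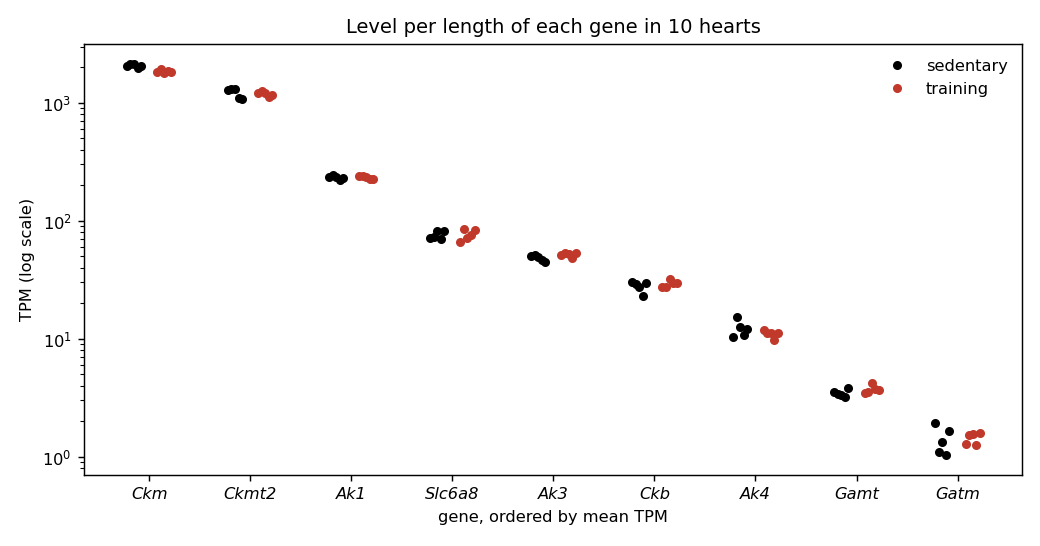
TPM of the 9 genes in each of the 10 hearts on a log axis, ordered by the mean, with sedentary hearts in black and training hearts in red. The levels run from 1960 TPM for Ckm to 1.43 TPM for Gatm, and no gene's points reach those of its neighbour.

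The order was the same in all 10 hearts. For each pair of neighbours, the lowest heart of the higher gene stayed above the highest heart of the lower gene. The closest pair was Slc6a8 and Ak3, with a lowest value of 66.3 TPM for Slc6a8 and a highest value of 53.2 TPM for Ak3. Ckm and Ckmt2 together dominated the group, with 54.9% and 33.7% of the summed TPM of the 9 genes, and Ckb supplied 0.806%.

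Of the 9 genes, 1 differed between training and sedentary hearts at a false discovery rate (FDR) below 0.1 over the 15454 genes tested, and that gene was Ckm, which was lower in training. All 9 genes had passed the filter on low counts. The share called over all genes tested was 7.01%, with 4.26% lower and 2.75% higher in training, so 1 of 9 is close to the background. The fold changes of 7 of the 9 genes were below 0, against 49.9% of all genes, but Ckb, Ak3 and Ak4 turned above 0 when libraries were scaled by their totals alone. In TPM, the training means of Ckb (29.4 against 27.9), Slc6a8 (76.4 against 75.7) and Ak3 (51.6 against 48.3) were the higher ones. Those of Ckm, Ckmt2, Ak1 and Ak4 were the lower ones. The median log2 fold change of the 9 genes was -0.05, beside 0.00026 for all genes tested. In bulk RNA, fewer cells of a type and less RNA per cell cannot be told apart.

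Ckm fell in training hearts. CPM values, which are read counts scaled to library size with TMM factors, in training mice 1 to 5 were 1715, 1706, 1515, 1643 and 1602. In sedentary mice 1 to 5 they were 1793, 2015, 1924, 1891 and 1924. Every training heart thus lay below every sedentary heart, a separation found in 5.06% of all genes tested, and in this direction in 2.94%. The means were 1636.5 ± 82.1 CPM in training and 1909 ± 80.1 CPM in sedentary hearts (SD, n = 5 each). The log2 fold change was -0.22 (SE 0.048, 95% interval -0.33 to -0.12, adjusted p = 0.0282 by the quasi-likelihood test of edgeR with Benjamini-Hochberg correction), a percent change of -14.3 (interval -20.2 to -7.90). On the TPM scale the groups were also apart, at 1850 ± 56.4 in training and 2069 ± 72.3 in sedentary hearts. Leaving out any 1 heart kept the fold change between -0.24 and -0.20 and the gene past the threshold. Scaling by library totals alone gave a smaller log2 fold change of -0.17 (adjusted p = 0.0423 by the same test).

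Ckmt2 lay lower on average without passing the test. Training mice 1 to 5 had 1734, 1661, 1559, 1504 and 1502 CPM, and sedentary mice 1 to 5 had 1717, 1884, 1821, 1628 and 1587 CPM. The groups overlapped, since training mouse 1 exceeded 3 of the 5 sedentary hearts. The log2 fold change was -0.12 (SE 0.059, interval -0.25 to 0.0098, adjusted p = 0.289), so a fall of the size seen in Ckm lies within the interval. Ckb, the isozyme of brain and of non-muscle cells, had 35.2, 34.5, 37.3, 36.2 and 35.4 CPM in training mice and 37.7, 39.4, 35.7, 32.4 and 40.0 CPM in sedentary mice. The training hearts fell inside the sedentary range, and the log2 fold change was -0.05 (SE 0.056, interval -0.17 to 0.068, adjusted p = 0.656).

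**Figure D2:**
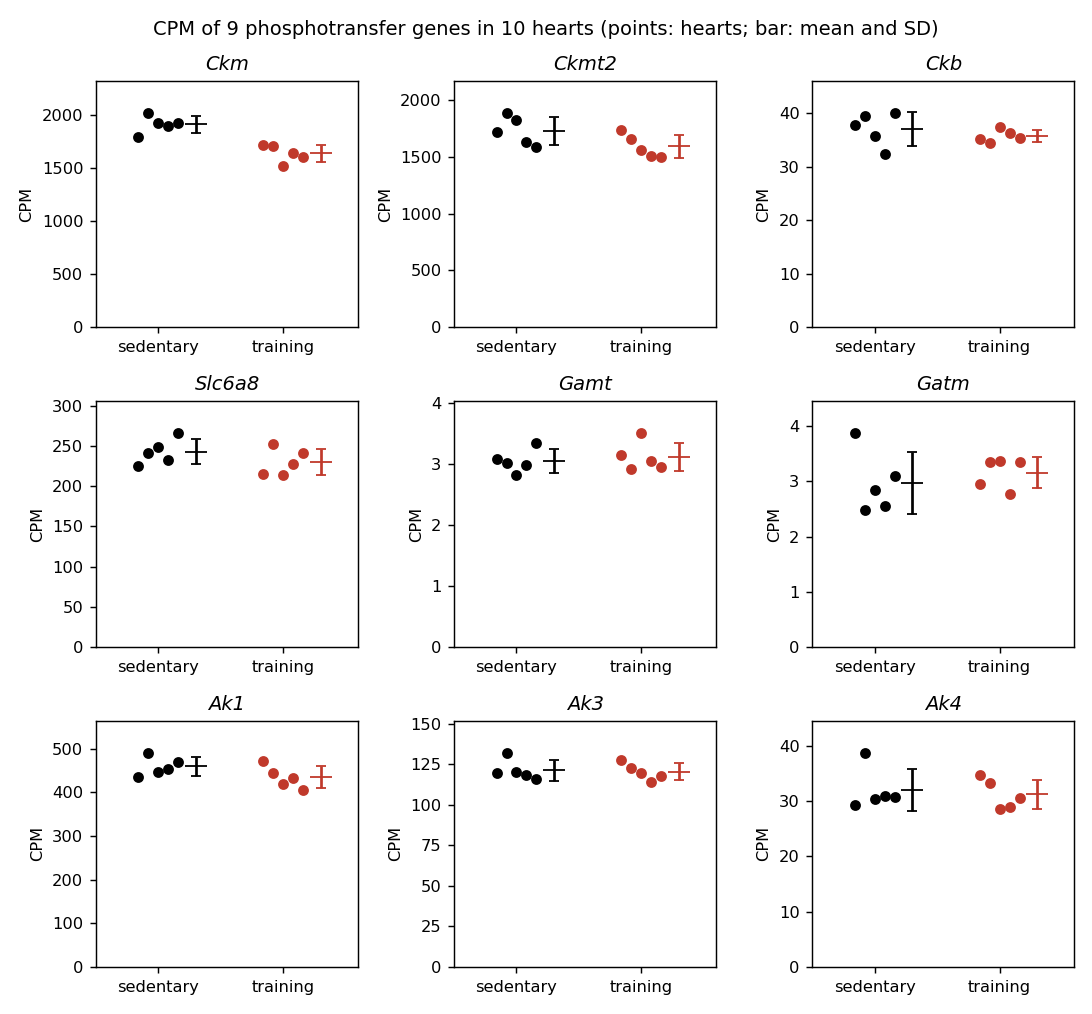
CPM of each of the 9 genes in every heart, with sedentary hearts in black and training hearts in red, axes starting at 0, and bars for the mean and SD of 5 hearts. Ckm is the gene whose groups do not overlap (1515 to 1715 CPM in training against 1793 to 2015 CPM in sedentary hearts), and the other 8 overlap.

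The transporter and the enzymes of creatine synthesis did not pass the test. Slc6a8, which brings creatine into the cell, ranged from 214 to 252 CPM in training and from 225 to 266 CPM in sedentary hearts, with a log2 fold change of -0.08 (SE 0.057, interval -0.20 to 0.043). The groups shared most of their range. Gamt had 3.11 ± 0.236 CPM in training and 3.05 ± 0.190 CPM in sedentary hearts, with a log2 fold change of 0.03 (interval -0.17 to 0.23). Gatm had 3.16 ± 0.281 and 2.97 ± 0.560 CPM, with a log2 fold change of 0.08 (interval -0.19 to 0.36). Both enzymes were counted with 85 to 156 reads per heart, the fewest of the 9 genes, and their intervals are the widest.

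Among the adenylate kinases none passed the test. Ak1 had 471, 444, 419, 432 and 405 CPM in training mice 1 to 5 and 436, 491, 447, 455 and 469 CPM in sedentary mice 1 to 5. Training mouse 1 was the second highest of all 10 hearts, whereas the other 4 training hearts lay below the sedentary median. The log2 fold change of Ak1 was -0.08 (SE 0.048, interval -0.18 to 0.023, adjusted p = 0.385). Ak3 was 120.4 ± 5.28 CPM in training and 121.1 ± 6.30 CPM in sedentary hearts (log2 fold change -0.0086, interval -0.11 to 0.088). Ak4 was 31.2 ± 2.69 and 32.0 ± 3.82 CPM (log2 fold change -0.04, interval -0.20 to 0.13). Sedentary mouse 2 was the highest heart for both Ak3 (132 CPM) and Ak4 (38.8 CPM).

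Because a ratio of 2 genes in 1 library does not depend on the scaling, log2 ratios of counts were computed in each heart and are given as a description. Ak1 to Ckm ran from -1.98 to -1.85 in training and from -2.11 to -2.04 in sedentary hearts, without overlap. Ckm, its denominator, was itself without overlap whereas Ak1 overlapped, so this ratio is not independent of the Ckm result. On the TPM scale, Ak1 equalled 12.6% ± 0.443 of Ckm in training and 11.3% ± 0.206 in sedentary hearts. Ckmt2 to Ckm averaged -0.04 ± 0.071 and -0.15 ± 0.095, and the groups overlapped. Ckb to Ckm averaged -5.52 ± 0.113 and -5.69 ± 0.123, also with overlap, which in TPM was 1.59% against 1.35% of Ckm. Gatm to Gamt and Ak4 to Ak3 differed by 0.07 and -0.03 between the groups in counts, each less than 1 SD. In TPM, Gatm equalled 38.8% ± 4.36 of Gamt in training and 40.4% ± 9.12 in sedentary hearts, the opposite direction. Ak4 in TPM equalled 21.4% ± 0.992 of Ak3 in training and 25.2% ± 3.43 in sedentary hearts, a wider gap than in counts, and the groups overlapped.

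The 9 genes did not vary as 1 block among hearts. After the group means were subtracted, Pearson's r over the 10 hearts was 0.89 between Ak3 and Ak4, 0.88 between Ckmt2 and Ak3, 0.82 between Ckm and Ak1 and 0.81 between Ckm and Ak4. Between Ckm and Ckb it was -0.06, and between Ckm and Gatm it was -0.62. These values share libraries and scaling and are a description. Sedentary mouse 2 had the highest CPM of all hearts for Ckm, Ckmt2, Ak1, Ak3 and Ak4, and r without it was not computed. Among 8495 genes with at least 10 CPM, the closest to Ckm by this measure were Adck1 (r = 0.96), Gfm2 (r = 0.96) and Aimp2 (r = 0.95). Of these, Adck1 was itself lower in training at a log2 fold change of -0.19 (adjusted p = 0.0757), while Gfm2 (-0.06, adjusted p = 0.458) and Aimp2 (-0.12, adjusted p = 0.320) did not pass.

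Markers of several of the heart's own cell types also differed between the groups, some lower and some higher in training. Over all genes tested, 4.26% were called lower and 2.75% were called higher. All 10 cardiomyocyte markers had fold changes below 0 (9 of 10 under library totals alone or DESeq2 size factors), with a median of -0.11, and Actc1 and Tnnc1, which encode cardiac actin and troponin C, passed the test. Their summed level was 66471 to 72869 CPM in training and 70167 to 79792 CPM in sedentary hearts. All 10 atrial markers lay above 0, with a median of 0.47, and Sln, Stard10 and Dkk3 passed. Their summed level was 6244 to 8909 CPM in training and 3765 to 8310 CPM in sedentary hearts. With a score of the atrial markers as a covariate, the log2 fold change of Ckm was -0.15 (adjusted p = 0.262), and with a score of the cardiomyocyte markers, an alternative added after the data were seen, it was -0.11 (adjusted p = 0.523). The call of Ckm is lost in both fits. Over all genes tested, calls fell from 1084 to 137 with the atrial score and to 41 with the cardiomyocyte score. The loss is thus not particular to Ckm. All 10 fibroblast markers also lay above 0 (median 0.21, 3 higher), at 3055 to 4031 CPM in training and 2770 to 3168 CPM in sedentary hearts, and their part in the result was not tested. The 10 endothelial markers had a median of -0.09, and Tie1, Flt1 and Esam passed as lower (1 of 10 under library totals alone). Their summed level did not overlap, at 969 to 1038 CPM in training and 1073 to 1127 CPM in sedentary hearts. Of 9 smooth muscle and pericyte markers, 2 were higher and 1 was lower. Ckm is also abundant in skeletal muscle. Of 11 skeletal muscle markers, 7 could be tested and 1 was called, Acta1, which the heart also expresses, at 310 ± 167 CPM in training and 556 ± 86.3 CPM in sedentary hearts (log2 fold change -0.84, adjusted p = 0.0935). The skeletal myosins Myh1, Myh2 and Myh4 had group means of 0.0630 CPM or less. None of the 10 macrophage, 10 Schwann cell and neuron or 5 erythroid markers tested was called (medians -0.10, 0.23 and -0.43). Of 9 adipocyte markers tested, 1 was lower, Fabp4, and the median was 0.53. The part of these and of the endothelial, smooth muscle and skeletal muscle markers in the result was not tested.

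**Figure D3:**
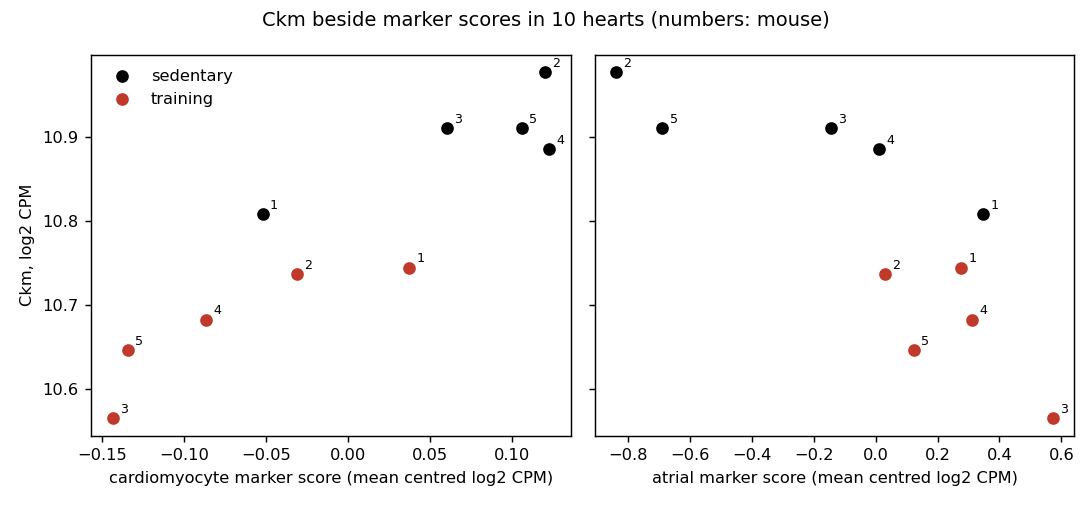
Ckm in log2 CPM against the cardiomyocyte marker score (left) and the atrial marker score (right), each the mean of centred log2 CPM over 10 markers, with 1 point for each heart and the mouse number beside it. Ckm is lower in the 5 training hearts (red) than in the 5 sedentary hearts (black), while both scores overlap between the groups.

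The neighbouring steps of energy transfer were read from 4 lists with 41 tested genes, of which 4 were lower and 1 was higher in training (2 and 3 when libraries were scaled by their totals alone). Over all genes tested, 4.26% were lower and 2.75% were higher, and with so few genes in each list the counts are given as a description. AMP sensing and adenine nucleotide breakdown had 2 lower and none higher of 15 tested, with a median log2 fold change of -0.07. Ampd3, an AMP deaminase that turns AMP into IMP, was 61.8, 62.1, 63.4, 57.9 and 56.3 CPM in training mice 1 to 5. It was 70.8, 74.6, 74.9, 73.7 and 71.3 CPM in sedentary mice 1 to 5, so the groups did not overlap. Its log2 fold change was -0.28 (SE 0.042, adjusted p = 0.00871), and it stayed called in all 10 fits that left out 1 heart, in DESeq2 and with the atrial score as a covariate. With the cardiomyocyte score as a covariate it was not called (-0.23, adjusted p = 0.196). Adss1, which starts the return of IMP to AMP in muscle, was lower at 91.1 ± 5.92 against 103.5 ± 7.47 CPM (log2 fold change -0.18, adjusted p = 0.0917). Only 2 of the 10 fits with a heart left out kept that call, and neither marker-score fit did. Prkaa2, a catalytic subunit of the AMP-activated protein kinase and the most abundant gene of the list, was 202 ± 10.4 and 201 ± 7.97 CPM.

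Among ATP users of contraction and ion transport, 1 of 6 was lower and 1 was higher, with a median of -0.04. Myh7, the slow beta-myosin heavy chain, was 195 to 383 CPM in training and 74.7 to 136 CPM in sedentary hearts. The groups did not overlap, and the log2 fold change was 1.20 (SE 0.184, adjusted p = 0.00871). Myh7 stayed called in both marker-score fits. Its fast partner Myh6, the most abundant gene of the list, was 27236 ± 553 and 29353 ± 1214 CPM and did not pass (log2 fold change -0.11, adjusted p = 0.265).

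In mitochondrial adenine nucleotide and phosphate exchange, 0 of 9 genes were called by edgeR, 2 had an unadjusted p under 0.05 (20.0% of all genes did) and the median was -0.04. The adenine nucleotide carrier Slc25a4, its most abundant gene, was 3677 ± 268 CPM in training and 3930 ± 179 CPM in sedentary hearts (log2 fold change -0.10, adjusted p = 0.378). Of the other phosphotransfer kinases, 11 of 16 could be tested and 1 was called lower, with a median of 0.04. The called gene was Nme2, a nucleoside diphosphate kinase, at a log2 fold change of -0.80 (adjusted p = 0.0705). That call is uncertain. Of the 10 fits with a heart left out, 4 kept it, and neither DESeq2 nor the marker-score fits did. It also depended on how reads were assigned. STAR counted a mean of 26.5 reads, whereas RSEM, which divides shared reads, assigned 10406. With RSEM counts the log2 fold change was 0.04 (adjusted p = 0.786), and the cause of the gap in reads was not tested. Guk1, the guanylate kinase and most abundant of this list, was 44.7 ± 2.52 and 44.8 ± 1.71 CPM.

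**Figure D4:**
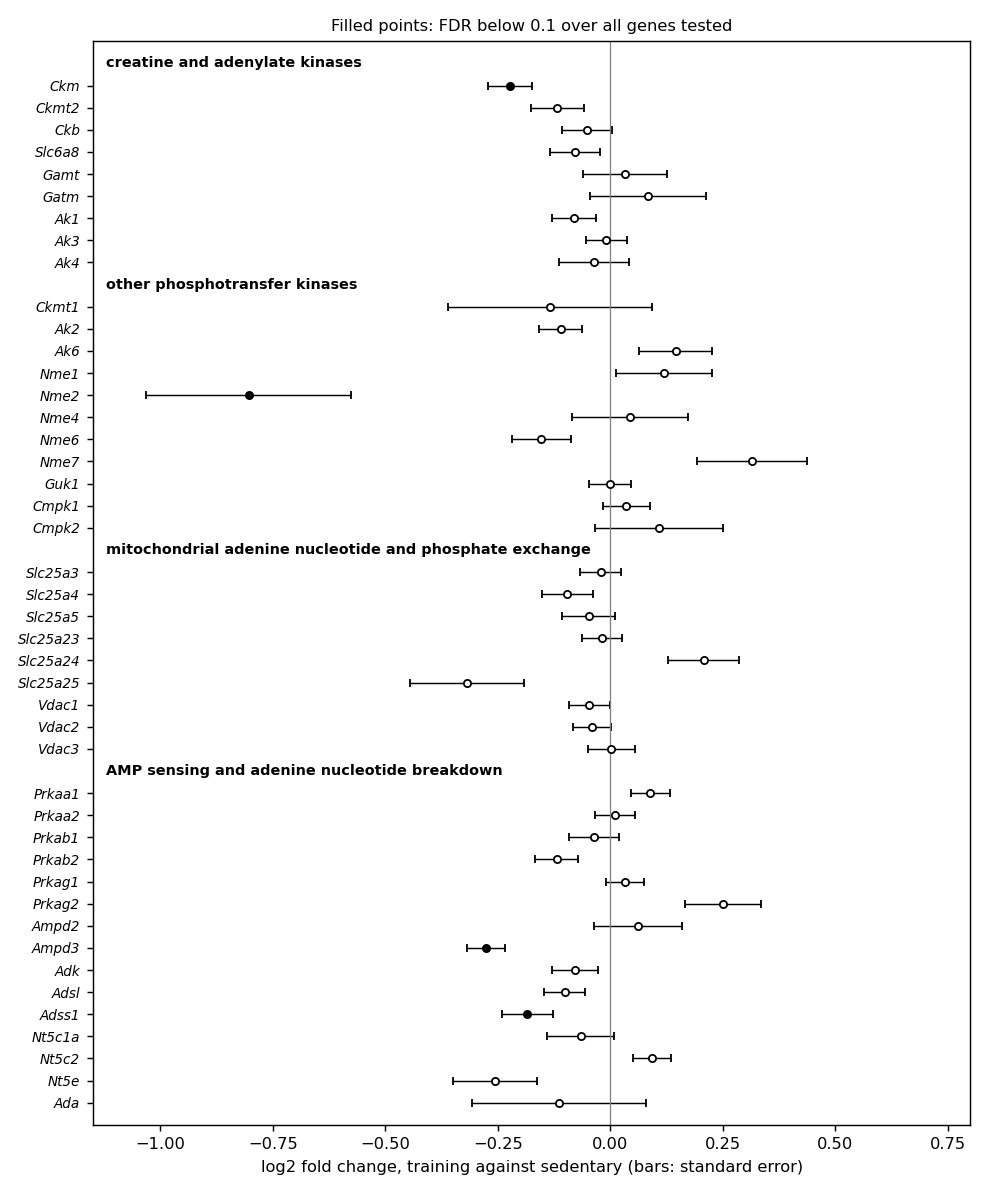
Log2 fold change (training against sedentary) of the 9 genes and of the tested genes of 3 lists (ATP users are not drawn), with bars for 1 standard error and filled points for genes past an FDR of 0.1. Ckm at -0.22 is the filled point among the 9 genes, and Nme2, Ampd3 and Adss1 are filled in the lists.

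The number of reads assigned to Ckm depended on the strand counted. Its exons span 9869 bases, of which 2564 are shared with the antisense lncRNA A930016O22Rik. The deposited tables hold counts for the reverse strand, which these directional libraries read, and for both strands together. Counting both strands together kept 41.4% to 46.6% of the reverse-strand reads of Ckm, against 87.6% to 89.3% for Ckmt2, 84.8% to 89.3% for Ak3 and 100% or more for the other 6 genes. Antisense genes in the count tables also share exonic bases with Ckmt2 (214, 1700119I11Rik) and Ak3 (832, Cdc37l1, and 447, 1700018L02Rik). They share 1382 with Gamt (Ndufs7), 231 with Ckb (Trmt61a) and 165 with Slc6a8 (Gm32261), genes that kept 100% or more. Gamt kept 102% to 106%. The cause of the loss in Ckm was not tested. The fold change of Ckm kept its direction in both counts, at -0.22 on the reverse strand and -0.29 with both strands together. A930016O22Rik itself had a mean of 109 reads per heart on its own strand, against 62806 for Ckm. RSEM estimates gave -0.23 for Ckm (adjusted p = 0.0355).

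**Figure D5:**
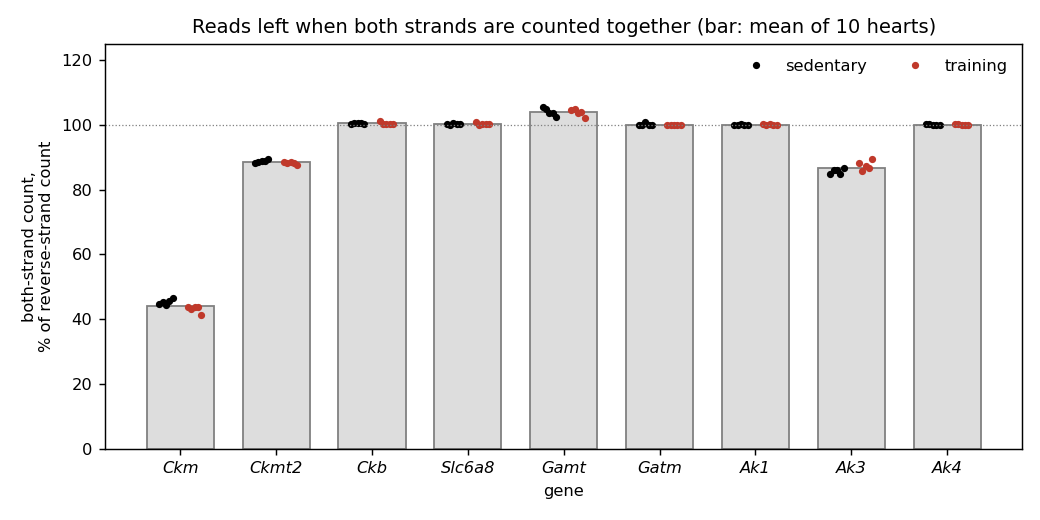
Reads assigned to each of the 9 genes when both strands are counted together, as a percent of the reverse-strand count, with 1 point for each heart (sedentary black, training red) and a bar for the mean. Ckm stands at a mean of 44.2%, while Ckmt2 and Ak3 lose less and the other 6 genes lie at 100% or slightly above.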

How the data were processed

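RNA of 10 whole hearts (5 training, 5 sedentary) was sequenced from directional, poly-A selected libraries as 1 pool. The authors aligned single reads to GRCm39 with STAR 2.7.10a and quantified genes with RSEM 1.3.3. The deposited tables hold whole-number counts per gene (each strand, and the 2 strands combined), and RSEM's expected counts, TPM and effective lengths (other columns). The RSEM strand setting is not given in the sources used here. Reverse-strand counts totalled 29461697 to 35945417 (training) and 35196993 to 39431030 (sedentary). The 4 summary lines that name no gene were left out. Of 56748 identifiers, 56017 matched GENCODE M39.

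Counts were filtered (filterByExpr), scaled by TMM and tested with edgeR 4.0.16 in R 4.3.3 (quasi-likelihood F test, Benjamini-Hochberg over 15454 genes, FDR below 0.1, two-sided). Expected counts were rounded before testing. No mouse carried a targeted gene. Each heart is a separate mouse. Same-numbered hearts showed no shared deviation and were not paired. The fits were checked on simulated counts, in which 20 of 97 log2 changes of 0.25 and 69 of 99 of 0.5 were called. Alternatives were DESeq2 1.42.0, other scalings and filters, RSEM counts, both strands, thinning to the smallest library, marker-score covariates, a block by mouse number and leaving out each heart. The 9 genes and all lists were chosen with earlier results of these data known. Named genes were the 9 genes, up to 3 called genes per direction and the most abundant gene of each list, and the 3 genes most like each called gene. A called gene of the lists is not reported here. A930016O22Rik and the named markers were chosen after their values were seen. No protein sequence was used here.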

Additional observations from a re-analysis of the deposited data

Results flagged for a closer look

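The sedentary heart of mouse 2 stood apart for the mitochondrial adenylate kinases. Its Ak3 level was 131.983 CPM, with the nearest sedentary heart at 119.8 CPM, and its Ak4 level was 38.7774 CPM, with the nearest at 31.0 CPM. In each case the gap to the nearest heart was larger than Dixon's 95% limit for 5 samples (0.71 of the range). Of 18 groups checked (9 genes in training and in sedentary hearts), these were the 2 that exceeded it, and chance alone exceeds it in about 1 in 20 groups. Without this heart the log2 fold change of Ak4 was 0.041 in place of -0.036, and that of Ak3 was 0.024 in place of -0.0086. Neither gene was called with or without it.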

How the results depend on the processing

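Ckm kept its direction in 22 of 22 alternatives, with adjusted p between 0.00023 and 0.0804 in all but the 2 marker-score fits, in which it was not called (members called: 0 with the atrial score, 0 with the cardiomyocyte score, which was added after the data were seen). Genes called numbered 1084, but 137 with the atrial score, 41 with the cardiomyocyte score, 505 at an FDR of 0.05 and 512 to 1490 with 1 heart left out. Leaving out training mouse 3 (540) or 4 (512), or sedentary mouse 2 (611), 3 (512) or 4 (671), moved the count by over 1.5 times. Library totals alone shifted the median of all genes to 0.05 and turned 659 lower and 425 higher genes into 339 and 1029. DESeq2 called 1473. The 5 list genes called became 3 with RSEM, 3 with both strands, 3 without mitochondrial DNA genes, 2 with the atrial score, 2 at an FDR of 0.05, 1 with the cardiomyocyte score and 2 to 9 with 1 heart left out. The lowest count, 2, came without training mouse 4 or 5 or sedentary mouse 3, 4 or 5, the highest, 9, without sedentary mouse 1, and 3 were called without training mouse 1 or sedentary mouse 2.

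Several uncalled log2 fold changes turned sign. Library totals alone gave 0.0010 for Ckb, 0.044 for Ak3 and 0.017 for Ak4. The atrial score gave 0.017 for Slc6a8, -0.046 for Gatm, 0.026 for Ak3 and 0.11 for Ak4. The cardiomyocyte score gave -0.18 for Gatm, 0.043 for Ak1, 0.052 for Ak3 and 0.15 for Ak4. Thinning gave -0.047 for Gamt, and both strands gave 0.019 for Ak3. With 1 heart left out, Gamt ran from -0.015 to 0.068, Ak3 from -0.031 to 0.024 and Ak4 from -0.077 to 0.041. The log2 ratio of Ak1 to Ckm differed by 0.21 with both strands, and by 0.13 to 0.16 in the other settings. The cause of these shifts was not tested.

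Mouse numbers did not pair the hearts: deviations of same-numbered hearts correlated between -0.10 and 0.16, and 1 of 5 matched best. A replicate block by mouse number called 1137 genes, 1 of the 9 genes and 4 list genes, with Ckm at -0.22 (adjusted p = 0.0522). Gamt and Gatm had the fewest reads of the 9 genes, 85 to 156 per heart.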
